A study of Mus musculus with 6 samples.

Results

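MHC class I, class II and complement genes were followed across the glial and vascular cells of the hypothalamus. The members were 9 genes chosen by symbol among the 16411 genes of the count table: B2m, H2-K1, H2-D1, Cd74, C1qa, C1qb, C1qc, C4b and C3. The cells came from male ob/ob mice, which lack functional leptin, aged 11 weeks, given 3 µg of FGF1 R50E into the cerebral ventricle and killed at day 5. All mice carried the ob/ob mutation and received the same agent, so no value here measures an effect of treatment. Whole dissociated cells of 4 mice (numbers 3, 4, 30 and 34), 1 mouse per droplet library, gave 20151 cells with a deposited cell type label. Cells of the other 2 R50E mice were not analysed here.

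The class I molecule is a heavy chain, encoded by H2-K1 or H2-D1, bound to β2-microglobulin (B2m), and presents peptides from inside the cell to CD8 T cells. Cd74 is the invariant chain that guides class II molecules to the endosome in antigen-presenting cells. C1qa, C1qb and C1qc encode the chains of C1q, which starts the classical complement pathway and in brain is known as a microglial product. C4b encodes complement component C4 and C3 the component on which all complement pathways converge, and both are known to rise in reactive glia.

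The upstream sequences of the class I genes are shown because the levels of B2m, H2-K1 and H2-D1 were correlated across cell types. They are the 250 bases before the annotated start, from RefSeq on GRCm38.p6, read 5′ to 3′ on the strand of the gene. B2m lies at chr2:122147437-122147686 (plus strand), H2-K1 at chr17:34000348-34000597 (minus strand) and H2-D1 at chr17:35262844-35263093 (plus strand). Capitals mark any match on either strand to 3 motifs known from class I promoters: CCAAT (Y box), GGATTCC (κB core) and TGACGC (X2 or CRE core).
B2m: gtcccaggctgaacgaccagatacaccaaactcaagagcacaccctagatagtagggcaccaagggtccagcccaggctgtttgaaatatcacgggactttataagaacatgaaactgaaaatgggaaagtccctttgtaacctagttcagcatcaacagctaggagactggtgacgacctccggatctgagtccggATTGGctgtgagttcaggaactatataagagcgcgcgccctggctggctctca
H2-K1: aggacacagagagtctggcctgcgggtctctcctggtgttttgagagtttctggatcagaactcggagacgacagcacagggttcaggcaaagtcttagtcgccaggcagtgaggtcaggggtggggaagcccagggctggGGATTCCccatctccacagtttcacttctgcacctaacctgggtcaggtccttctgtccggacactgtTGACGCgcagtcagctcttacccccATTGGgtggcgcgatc
H2-D1: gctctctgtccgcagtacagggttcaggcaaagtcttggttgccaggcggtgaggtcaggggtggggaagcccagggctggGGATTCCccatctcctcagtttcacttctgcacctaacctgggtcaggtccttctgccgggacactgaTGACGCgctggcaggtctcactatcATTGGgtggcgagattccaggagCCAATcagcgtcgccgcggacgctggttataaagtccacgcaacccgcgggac

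H2-K1 and H2-D1 held the κB core, TGACGC and CCAAT letters in the same order, and B2m held CCAAT. Of 32851 promoter windows of this length, 33.8% held CCAAT, 6.12% TGACGC and 3.17% GGATTCC. These matches are a description of the letters. Of the 9 members, 6 had a promoter in the reference table.

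Raw transcript counts (unique molecular identifiers, UMIs) were summed per mouse and labelled type and are given as CPM, the UMIs of a gene per 1000000 UMIs of that sum. Of the labelled types, 8 had 20 cells or more from each mouse, and a sum of these held 34 to 2498 cells and 44756 to 2319177 UMIs. The types were microglia (Micro), endothelial cells (Endo), astrocytes (Astro), tanycytes (Tany), ependymal cells (Epend), oligodendrocyte precursors (OPC), committed precursors (COP) and oligodendrocytes (Oligo). Other than COP, for which no marker list was used, each of these types was checked against its own list, and 6 of the 7 held it highest, for example 11305 to 15350 CPM of 15 microglial markers in microglia against 78.3 to 390 CPM elsewhere. The exception was the precursor list of Pdgfra, Cspg4, C1ql1, Gpr17 and Bmp4. It reached 3002 to 3789 CPM in COP and 2437 to 2660 CPM in OPC. Vascular leptomeningeal cells numbered 68 in all and entered no test. In dissociated tissue, free RNA gives every droplet some transcripts of other cells. Microglia were therefore the reference for leaked transcripts: the marker level of a type, divided by that of microglia in the same mouse, gave a leak ratio, and a member's microglial level times this ratio was its expected leak. A value was above the leak when the lower bound of its exact 95% Poisson interval exceeded that level, which covers counting error only.

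Among the 8 types tested, B2m was highest in microglia, at 1341, 1609, 2596 and 1525 CPM in mice 3, 4, 30 and 34. Endothelial cells followed at 995, 650, 926 and 991 CPM. The ranges of these 2 types did not overlap with each other or with any glial type. Tanycytes had 245, 226, 573 and 259 CPM, OPC 263, 381, 331 and 262 CPM, and astrocytes 249, 236, 316 and 261 CPM. These 3 types overlapped. Oligodendrocytes were lowest on average at 117 ± 24.6 CPM (SD, n = 4), close to COP at 144 ± 56.5 CPM. Ependymal cells had 113, 92.4, 542 and 152 CPM, so that mouse 30 lay far above the others. Vascular leptomeningeal cells, with 6, 12, 44 and 6 cells per mouse, had 358, 679, 1913 and 878 CPM of B2m, a range that overlapped with both microglia and endothelial cells.

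**Figure D1:**
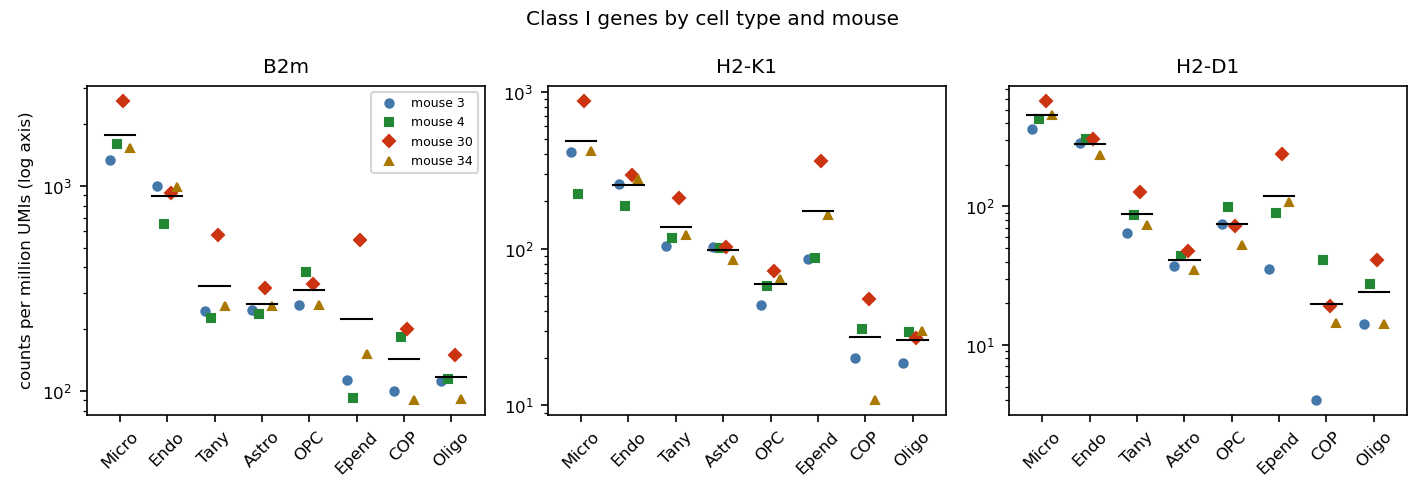
Level of B2m, H2-K1 and H2-D1 in CPM (log axis) in 8 cell types, with 1 point per mouse and the mean as a bar. Microglia and endothelial cells hold the highest means, and mouse 30 (red diamonds) is highest in tanycytes and ependymal cells for all 3 genes.

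H2-K1, a class I heavy chain, had 412, 223, 872 and 421 CPM in microglia and 259, 186, 296 and 278 CPM in endothelial cells. Ependymal cells had 85.7, 86.6, 361 and 162 CPM and tanycytes 104, 117, 209 and 122 CPM. Astrocytes had 102, 100, 102 and 85.0 CPM, the smallest coefficient of variation of these types (8.58%). All 4 astrocyte values were below all 4 tanycyte values and above all 4 OPC values, which ran from 43.8 to 72.2 CPM. Oligodendrocytes (26.1 ± 5.23 CPM) and COP (27.3 ± 15.9 CPM) overlapped at the bottom of the order.

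H2-D1, the other heavy chain, had 360, 425, 578 and 455 CPM in microglia and 286, 308, 307 and 235 CPM in endothelial cells. Below these, unlike for H2-K1, OPC, at 74.4, 98.4, 72.2 and 52.8 CPM, lay above astrocytes, at 37.2, 43.7, 48.0 and 35.0 CPM, without overlap. Tanycytes had 64.4, 86.2, 126 and 72.8 CPM and ependymal cells 35.6, 89.5, 240 and 108 CPM. Reads of H2-K1, H2-D1 and other class I heavy chains can be shared, since these genes are close copies, so the split between the 2 heavy chains is uncertain.

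Class I transcripts were above the microglial leak in 80 of 84 values of gene, type and mouse outside microglia. B2m exceeded it in every mouse in all 7 types, by a median of 4.45 times in oligodendrocytes to 33.0 times in endothelial cells. H2-K1 and H2-D1 exceeded it in every mouse in endothelial cells, astrocytes, tanycytes, ependymal cells and OPC. In oligodendrocytes H2-D1 did so in 4 mice and H2-K1 in 3. In COP, where H2-D1 rested on 22 UMIs, H2-K1 did so in 3 mice and H2-D1 in 2. In these values the leak given by the 15 markers was smaller than the measured class I level. Leak from astrocytes was not set against class I. The 7 astrocyte markers summed to 1945 to 2687 CPM in oligodendrocytes and 13274 to 14593 CPM in astrocytes. How much class I such leak adds to the types with low levels was not tested.

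**Figure D2:**
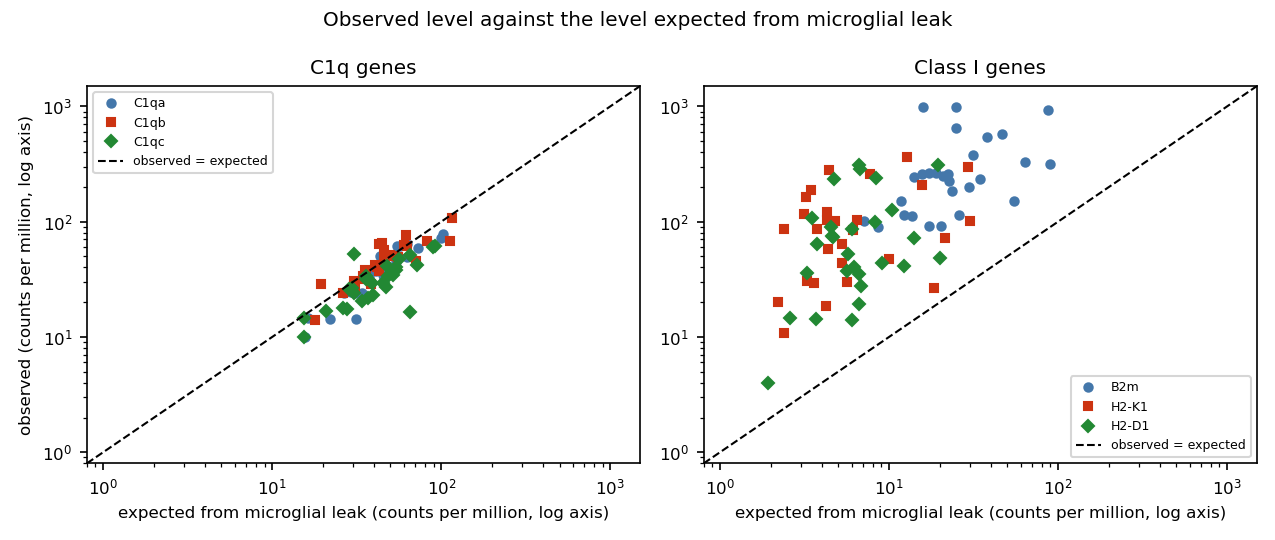
Observed level against the level expected from microglial leak, both in CPM on log axes, with 1 point per gene, type and mouse for 7 types other than microglia. The C1q genes (left) lie near the dashed line of equality, and the class I genes (right) lie above it.

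Between types, edgeR's quasi-likelihood test with mouse as a block and Benjamini-Hochberg adjustment over all genes tested was run for 7 contrasts, and a gene was called when its adjusted p was under 0.05 and it changed by over 1 on the log2 scale. The labels rest on the same counts, so these tests compare groups partly defined by the data. Endothelial cells exceeded astrocytes in all 3 class I genes. H2-D1 differed by 2.77 ± 0.13 (log2, SE; adjusted p = 4.75e-27), B2m by 1.72 ± 0.11 (adjusted p = 2.92e-22) and H2-K1 by 1.37 ± 0.12 (adjusted p = 6.95e-15), each higher in 4 of 4 mice. With C4b, which was lower, 4 of 7 members tested were called, where 35% of all 7616 genes tested were called.

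Astrocytes exceeded oligodendrocytes in H2-K1 by 1.77 ± 0.15 (adjusted p = 1.37e-13) and in B2m by 1.06 ± 0.10 (adjusted p = 6.02e-12). B2m fell just under the fold limit without mouse 34, at 0.99. H2-D1 was 0.85 ± 0.19 higher, under the limit with all mice. With C4b, 3 of 8 members were called, against 30.5% of 9730 genes. OPC exceeded oligodendrocytes in H2-D1 by 1.46 ± 0.23 (adjusted p = 1.37e-08) and in B2m by 1.04 ± 0.11 (adjusted p = 1.06e-14), which made 2 of 7 members against 28% of 6497 genes. Scaling moved the median of all genes in this contrast by 0.42 (log2) when library totals replaced TMM factors, and B2m was no longer called by DESeq2, where its log2 fold change was 0.94, nor without mouse 4 (0.92) or mouse 34 (0.98).

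Astrocytes and tanycytes differed little in B2m, at -0.16 ± 0.11 (adjusted p = 0.223). H2-D1 was lower in astrocytes by -0.99 ± 0.13 (adjusted p = 6.52e-08) and H2-K1 by -0.38 ± 0.12 (adjusted p = 0.00804), each in 4 of 4 mice and both under the fold limit. C4b was the 1 call among 7 members, where 21.1% of 10081 genes were called. Without mouse 3, or with DESeq2, H2-D1 passed the limit as well, at -1.08 and -1.02.

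The contrasts with ependymal cells depended on mouse 30. Astrocytes had less H2-D1 than ependymal cells by -1.19 ± 0.24 (adjusted p = 2.98e-04, 3 of 4 mice), but -0.88 without mouse 30, under the fold limit. B2m was 0.64 ± 0.23 higher in astrocytes, and 1.15 higher without mouse 30, which made it a call. Of 7 members, 4 were called, against 31.8% of 8371 genes. Between tanycytes and ependymal cells, edgeR called 0 of 7 members, against 19.8% of 8781 genes. DESeq2 called 0 as well. In edgeR 3 members had an unadjusted p under 0.05, and B2m and C4b passed the adjusted p but not the fold limit. B2m was 0.76 ± 0.12 higher in tanycytes (adjusted p = 1.85e-06, 4 of 4 mice) and 1.09 higher, a call, without mouse 30. C4b was -0.72 ± 0.20 in tanycytes against ependymal cells (adjusted p = 0.00299, 3 of 4 mice).

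**Figure D3:**
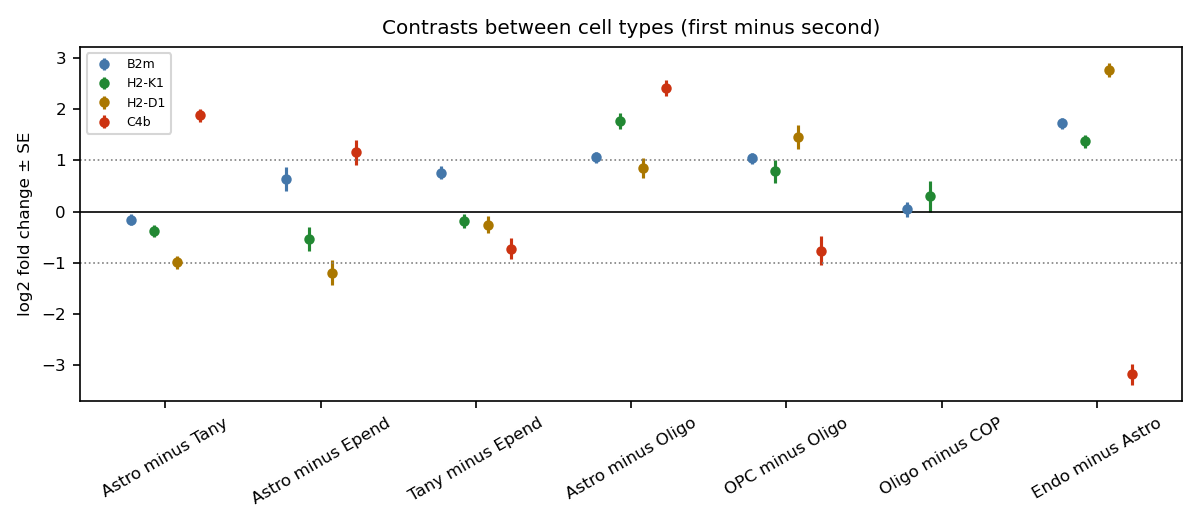
Log2 fold change (first type minus second) with its standard error for B2m, H2-K1, H2-D1 and C4b in 7 contrasts of cell types over 4 mice, where tested. Dotted lines mark the fold limit of 1. The 3 class I genes are above 1 and C4b is at -3.18 in endothelial cells against astrocytes.

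The list of other class I genes held 18 genes of the nonclassical heavy chains, peptide transporter, proteasome and chaperones. Against astrocytes, endothelial cells had 8 of 13 tested genes higher and 0 lower (17.2% of all genes were higher), with a median of 1.25 (log2) against -0.02 over all genes. Psmb8, an immunoproteasome subunit, was 2.85 ± 0.24 higher, and Psme2, a proteasome activator, 1.25 ± 0.15 higher. Of 15 genes tested between astrocytes and tanycytes, 7 were lower in astrocytes and 0 higher (10.1% of all genes were lower), with a median of -0.60 against 0.01. They included Psme2, at 49.3 ± 3.34 CPM in astrocytes and 125 ± 17.1 CPM in tanycytes. The chaperones Canx and Calr, which serve all secretory proteins, were not called in any of the 7 contrasts, and Canx was -0.68 ± 0.11 in endothelial cells against astrocytes. Pdia3, a thiol oxidoreductase of the loading complex, was called once, lower in oligodendrocytes than in COP at -1.24 ± 0.14 (adjusted p = 9.21e-12).

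Across the 8 types, the class I genes had similar profiles of log2(CPM + 10). H2-D1 correlated with H2-K1 at r = 0.949 and with B2m at r = 0.939 over 8 type means, which share libraries and depth. B2m correlated with H2-K1 at r = 0.897. They did not move alike in every contrast: in astrocytes against ependymal cells B2m was 0.64, H2-K1 -0.54 and H2-D1 -1.19 (log2). Among 6580 genes the profiles most like H2-D1 were Jun (0.981), Egr1 (0.980) and Ier3 (0.979), all immediate early genes. Those most like B2m were Ets2, Mknk2 and Prr14, at 0.978, 0.976 and 0.974.

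C1qa, C1qb and C1qc were microglial. Their summed level in microglia was 9072 ± 91.9 CPM (SD, n = 4), and 378 of 380 microglia held at least 1 UMI of them. C1qa had 2930.1, 2927, 2981 and 2856 CPM in the 4 mice, with a coefficient of variation of 1.76%. In astrocytes it had 31.7, 64.2, 78.0 and 40.0 CPM, and in COP, the lowest of the 8 types tested, 22.3 ± 13.6 CPM.

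In the other 7 types tested the summed C1q level was 0.863% (COP) to 1.81% (astrocytes) of the microglial level on average. The 15 microglial markers gave 0.925% in COP and 2.16% in astrocytes, the lowest and highest of these types. The 68 vascular leptomeningeal cells, on 9 UMIs, averaged 0.751%. Of 84 C1q values of gene, type and mouse, 1 was above the expected leak. C1qb lay at a median of 0.98 times its expected leak, C1qa at 0.88 and C1qc at 0.70.

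Of the cells in each of these 7 types, 8.52% to 10.4% held a C1q UMI. Among the astrocytes with one, 47.5% also held a UMI of a microglial marker, against 12.3% of the other astrocytes. The median depth of these cells was 894 and 847 UMIs. The 3 genes were not in the same ratio everywhere: C1qc made up 31.2% of C1q UMIs in microglia and 23.6% in astrocytes, lower in astrocytes in 4 of 4 mice. The cause of this was not tested.

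C1q genes nonetheless passed the test between some types. C1qb was 1.18 ± 0.19 higher in astrocytes than in ependymal cells (adjusted p = 2.57e-05) and C1qa 1.13 ± 0.25 higher (adjusted p = 5.89e-04). C1qa fell under the fold limit without mouse 4 (0.91) or mouse 34 (0.97). In oligodendrocytes C1qa was 1.12 ± 0.29 (adjusted p = 8.45e-04) and C1qb 1.03 ± 0.26 higher than in COP (adjusted p = 5.03e-04). These were the calls of that contrast, 2 of 5 members tested against 27.1% of 6209 genes, and both fell under the fold limit without mouse 3 (0.92 and 0.85) or mouse 34 (0.99 and 0.94). In that contrast 0 members were called with library totals (C1qa 0.84, C1qb 0.75), and 0 with sums thinned to equal totals or without cells holding a microglial marker UMI, where both genes fell below the count filter and were not tested. In astrocytes against ependymal cells without such cells, C1qa was 1.04 and C1qb 1.13 higher, both still called, and with thinned sums C1qa was 0.69 and lost its call. The marker sums moved the same way, at 291 ± 83.7 CPM in astrocytes, 144 ± 25.2 CPM in ependymal cells, 208 ± 44.4 CPM in oligodendrocytes and 129 ± 67.6 CPM in COP, and their part in these calls was not tested beyond this.

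Cd74 was found mainly in microglia and varied widely between mice, at 74.9, 626, 1217 and 152 CPM on 10, 28, 120 and 18 UMIs. In mouse 4, 2 of 34 microglia held all 28 UMIs. In mouse 30, 32 of 95 microglia held Cd74. Cells of mouse 30 with a UMI of a border macrophage marker had 2478 CPM, and those without had 806 CPM. In mouse 34 these were 1124 CPM (9 cells) and 81.3 CPM. In mice 3 and 4 the 2 and 3 cells with such a UMI held no Cd74, and those without had 76.0 and 659 CPM. The 7 border macrophage markers summed to 97.4 to 517 CPM over the mice. The lymphocyte, dendritic cell and neutrophil markers, 8 listed genes, were at 0 UMIs in microglia. In the other 7 types Cd74 was at most 53.1 CPM, and in no type was it above the microglial leak in every mouse. Tanycytes of mouse 30 had 43.2 CPM against 1.12 to 2.27 CPM in the others.

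The class II chains followed Cd74 in differing between mice. H2-Aa, a class II chain, had 0, 246, 527 and 25.3 CPM in the microglia of mice 3, 4, 30 and 34. In ependymal cells it had 44.3 CPM in mouse 30 and 0 UMIs in the others. H2-Ab1, its partner, had 7.49, 201, 355 and 0 CPM in microglia, on 1, 9, 35 and 0 UMIs. It was 1.52 ± 0.33 lower in tanycytes than in ependymal cells (adjusted p = 1.77e-04), on ependymal values of 16.2, 5.8, 65.4 and 12.0 CPM. The proteases Lgmn and Ctss were the list's most abundant genes, at 1536 ± 224 and 2370.0 ± 585 CPM in microglia. Ctss is also one of the microglial markers. Lgmn was 1.08 ± 0.11 higher in astrocytes than in tanycytes (adjusted p = 1.29e-10).

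Among the 8 types tested, C4b had its highest level in astrocytes, where it was even between mice at 155, 177, 170 and 173 CPM. Tanycytes had 43.7, 31.8, 71.6 and 43.1 CPM. Oligodendrocytes had 19.0, 29.4, 61.7 and 26.6 CPM. No astrocyte value overlapped with any other of these 8 types. Endothelial cells had 19.4 ± 5.94 CPM and COP 7.70 ± 4.77 CPM. The few vascular leptomeningeal cells had 0, 0, 285 and 79.8 CPM of C4b, on 0, 0, 24 and 1 UMIs, so that mouse 30 lay above the astrocytes. In microglia only 12 UMIs were counted, so that the microglial leak is a weak reference for this gene. C4a, a close copy of C4b, was not among the listed genes, and its reads may have been counted as C4b.

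Astrocytes exceeded endothelial cells in C4b by 3.18 ± 0.20 (log2; adjusted p = 1.56e-21), oligodendrocytes by 2.41 ± 0.15 (adjusted p = 1.77e-18), tanycytes by 1.88 ± 0.13 (adjusted p = 3.80e-15) and ependymal cells by 1.16 ± 0.25 (adjusted p = 4.83e-04), each in 4 of 4 mice. The difference from ependymal cells was 0.79 without mouse 3 and 0.98 without mouse 4, both under the fold limit. Of cells, 13.2% of astrocytes, 10.0% of ependymal cells and 2.38% of microglia held a C4b UMI, and 9.94%, 5.40% and 1.97% when each cell was thinned to 700 UMIs.

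Since astrocytes were the main source, C4b elsewhere was also set against leak from astrocytes, a comparison added after the levels were seen. With Agt, Aqp4 and Gfap as astrocyte markers, tanycytes were above this leak in 4 mice and ependymal cells in mice 30 and 34. Aqp4 and Gfap are also made by ependymal cells, so Agt alone was tried next. It gave the same calls in tanycytes and added mouse 4 in ependymal cells. Under both, oligodendrocytes were above it in mice 30 and 34, OPC and microglia in mouse 30, and endothelial cells and COP in 0 mice.

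**Figure D4:**
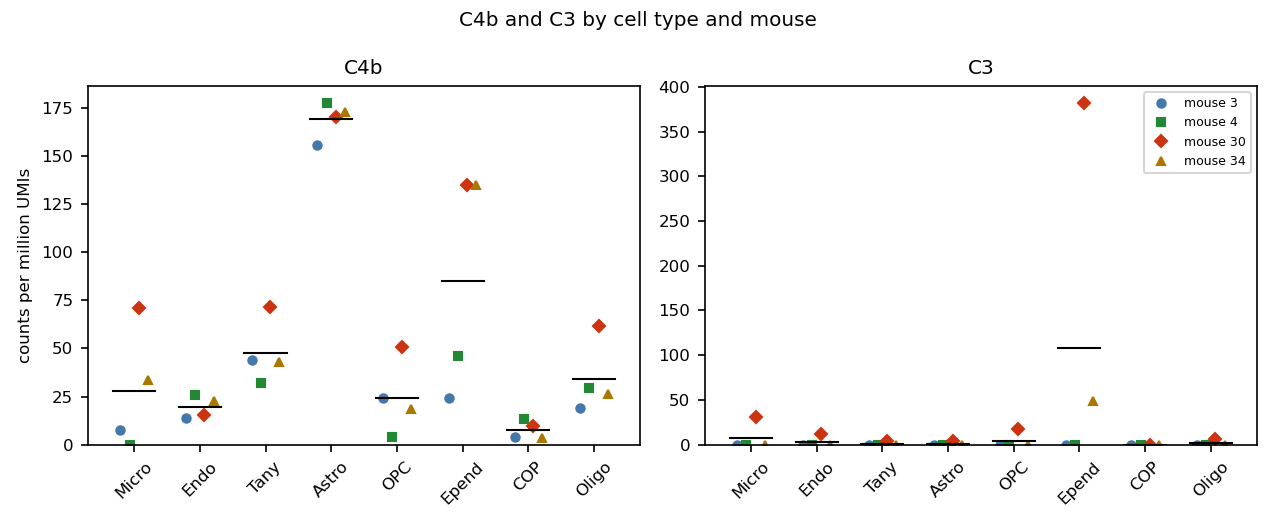
Level of C4b and C3 in CPM in 8 cell types, with 1 point per mouse and the mean as a bar. C4b is between 155 and 177 in the astrocytes of all 4 mice, and C3 reaches 382 in the ependymal cells of mouse 30 and 49.3 in those of mouse 34.

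C3 was an ependymal transcript in 2 mice. Of its 244 UMIs in all types, 222 lay in ependymal cells, with 0, 0, 181 and 41 UMIs in mice 3, 4, 30 and 34. This gave 382 CPM in mouse 30 and 49.3 CPM in mouse 34. In mouse 30, 95 of 380 ependymal cells held C3 (25%), and in mouse 34, 37 of 465 (7.96%). Astrocytes held 2 UMIs and microglia 3 UMIs, all in mouse 30. C3 passed the low-count filter in 0 of the 7 contrasts and so was not tested.

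Ependymal C4b was also high in mice 30 and 34, at 135 and 135 CPM against 24.3 and 46.2 CPM in mice 3 and 4. Class I followed mouse 30 more than mouse 34: B2m was 542 and 152 CPM, and Psmb8 88.6 and 27.7 CPM against 4.9 and 2.9 CPM in mice 3 and 4. In mouse 30, ependymal cells with C3 had 1184 CPM of B2m (95% Poisson interval 1002 to 1389) and those without 308 (252 to 372). Their medians of UMIs per cell were 992 and 965. H2-K1 was 631 (501 to 786) and 262 CPM (211 to 322). C4b was 213 (140 to 310) and 107 CPM (75.0 to 147), with intervals that overlapped. Among ependymal markers, Tmem212 was lower with C3, at 947 (785 to 1132) against 1370 CPM (1250 to 1499). Ccdc153 was 947 and 1241 CPM and Foxj1 584 and 760 CPM, with intervals that overlapped. Rarres2 was 1499 and 1483 CPM. These cells are from 1 mouse, so the intervals cover counting error only, and 5 cells held 31.5% of the ependymal B2m UMIs of mouse 30. In mouse 34 the intervals overlapped for B2m, at 207 CPM with C3 (123 to 327) and 145 CPM without (119 to 175), and for H2-K1, at 230 (141 to 355) and 154 CPM (128 to 185). C4b was 242 and 122 CPM there, again with overlapping intervals (149.5 to 369 and 98.4 to 150.1). The intervals of Tmem212, Ccdc153, Foxj1 and Rarres2 all overlapped in mouse 34. C3-holding cells of mouse 34 were deeper, with medians of 2255 and 1236.5 UMIs. Cxcl10, an interferon-induced chemokine, was 5484 CPM with and 3092 CPM without C3, and in mouse 34 it was 57.5 and 36.3 CPM. Psmb8 and Cxcl10 were named after their values were seen.

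Among the complement list, 20 of 30 genes were listed. Clu, which encodes the complement inhibitor clusterin, was the 1 list gene called in the same direction as C4b in all 4 contrasts that called C4b. It had 2993 ± 305 CPM in astrocytes, 1485 ± 212 CPM in ependymal cells and 567 ± 76.3 CPM in tanycytes. Cd59a, an inhibitor of the membrane attack complex, was an endothelial gene at 203 ± 50.7 CPM and 4.55 ± 0.20 (log2) above astrocytes. Cr1l, a complement regulator, was 1.11 ± 0.19 higher in endothelial cells than in astrocytes and 1.04 ± 0.26 higher in astrocytes than in ependymal cells. Csmd1, another regulator, was highest in OPC at 83.1 ± 21.7 CPM and 5.52 ± 0.35 above oligodendrocytes. The profiles most like C4b over the 8 types were Fam213a (0.975), Nadk2 (0.974) and Slc25a18 (0.974).

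Of 15 regulators, 11 were tested between endothelial cells and astrocytes, 7 were higher and 0 lower in endothelial cells (17.2% of all genes were higher), with a median of 1.27 against -0.02 over all genes. Ifnar1, an interferon receptor chain, was 1.90 ± 0.17 higher. Ifngr1, an interferon gamma receptor chain, was 1.62 ± 0.20 higher in astrocytes than in oligodendrocytes. Stat3 was called in 0 of the 7 contrasts.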

How the data were processed

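Droplet single-cell RNA libraries (10x Chromium 3′ v2) of whole hypothalamic cells were made by the authors, 1 mouse each. The deposited table holds raw counts of UMIs per gene and cell, and per the labels the submitters' processing notes name Cell Ranger 1.2, Seurat and the builds GRCm38, mm10 and GRCh38. Deposited cell type labels and doublet scores (a fraction per cell, from the authors) were used as given, and how they were made is not given in the sources used here. Cells of 12 other libraries (50172 cells) of the table match no sample and were not used, nor were R50E mice 12 and 37 analysed here. Of 19954 barcodes, 194 occur in more than 1 library. Per mouse, 3005 to 7386 cells and 3299971 to 8856079 UMIs were used.

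Counts were summed per mouse and type, and edgeR 4.0.16 (glmQLFit and glmQLFTest, TMM, filterByExpr) was fitted per contrast in R 4.3.3, with mouse as block, p-values adjusted by Benjamini-Hochberg over all genes tested. DESeq2 1.42.0 was an alternative. The scripts were tested on simulated data. The mouse number pairs the types by design: deviations of 2 types correlated within a mouse at r = 0.131 to 0.431 in 28 pairs. Mouse sums of astrocytes differed from each other by 1.90 to 5.23 chi-square per degree of freedom, so no library was a copy of another. Named genes were the members, the 4 most abundant genes of each list, list genes called in the direction of a member in at least 3 contrasts, and the 3 genes most like C4b, H2-D1 and B2m. Of the genes this rule names, 1 is not reported here. Members and lists were chosen with earlier results of these data known. Alternatives were other scalings, filters, cell sets, call rules and leaving out each mouse.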

Additional observations from a re-analysis of the deposited data

Results flagged for a closer look

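Of 60 groups of 4 mice with at least 20 UMIs, 7 had a mouse far from the others by Dixon's 95% limit, where chance gives about 1 in 20. Mouse 30 was the high one in 5: B2m in tanycytes (573 CPM, others 226 to 259), B2m in ependymal cells (542 CPM, others 92.4 to 152), Cd74 in tanycytes (43.2 CPM, others 1.12 to 2.27), C1qc in OPC (50.9 CPM, others 16.4 to 21.9) and C3 in ependymal cells (382 CPM, others 0 to 49.3). The other two were low: H2-K1 in astrocytes of mouse 34 (85.0 CPM, others 100 to 102) and C1qb in microglia of mouse 4 (2860.0 CPM, others 3357 to 3429).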

How the results depend on the processing

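Of 93 recomputed counts of called members, 69 stayed within 1.5 times the reported count, as did 54 of 56 counts above the leak. Of 32 shares of cells with a UMI, 23 moved by more than 1 SD between mice when cells were thinned to 700 UMIs, and 9 did not. Of 392 recomputed log2 fold changes, 337 kept direction and call, 21 lost the call, 22 gained it and 12 changed sign. The endothelial against astrocyte count did not move beyond this limit under any alternative run.

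With DESeq2, 2 members were called in astrocytes against tanycytes and 1 in OPC against oligodendrocytes. Library totals in place of TMM moved the median of all genes by 0.42 (log2) in OPC against oligodendrocytes, -0.28 in oligodendrocytes against COP, 0.17 in astrocytes against oligodendrocytes and -0.12 in astrocytes against ependymal cells. With them the counts were 2 in astrocytes against tanycytes and 0 in oligodendrocytes against COP. Without the replicate block, 2 were called in astrocytes against tanycytes, and the sign of B2m turned to -0.017 in oligodendrocytes against COP; the block changed no other count by over 1.5 times. Without the filter, 1 was called in tanycytes against ependymal cells and 1 in OPC against oligodendrocytes, where the joint fit also called 1. With adjusted p alone the counts were 6 (astrocytes against tanycytes), 2 (tanycytes against ependymal cells) and 5 (OPC against oligodendrocytes). Without the 10% of cells with the highest doublet scores, 2 were called in astrocytes against tanycytes, and 3 were above the leak in COP. Thinned sums and cells without marker UMIs each gave 0 in oligodendrocytes against COP.

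Leaving out 1 mouse gave 1 to 2 calls in astrocytes against tanycytes, 2 to 4 against ependymal cells, 0 to 1 in tanycytes against ependymal cells, 1 to 3 in OPC against oligodendrocytes, 0 to 4 in oligodendrocytes against COP, and 1 to 3 members above the leak in COP. Signs changed without mouse 30 for B2m in astrocytes against tanycytes (-0.22 to 0.056 over the mice left out), H2-K1 (-0.32 to 0.078) and H2-D1 (-0.52 to 0.033) in tanycytes against ependymal cells. In oligodendrocytes against COP, B2m ran from -0.13 to 0.20 and H2-K1 from -0.033 to 0.56, and B2m was -0.24 with library totals.

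Without mice 30 and 34, an alternative chosen after seeing the data, 1 member was called in tanycytes against ependymal cells, where H2-K1 was 0.44, H2-D1 0.50 and C4b 0.38, and H2-K1 was 0.36 in astrocytes against ependymal cells. The causes were not tested. The leak level could not be recomputed without cells holding a marker UMI, since the ratio would be 0. COP sums of H2-D1 and C4b, on 22 and 9 UMIs, limit what depth can show there.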
